A study of Mus musculus with 10 samples.

Results

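The genes described here are Pcsk1, Pcsk2, Cpe and Pam, which encode enzymes that turn prohormones into active peptides. They were chosen by name, are 4 of 27716 genes shared by all matrices, and were followed in every cell class and at every stage of fetal mouse pancreas that the libraries hold. Single-cell RNA was counted as UMIs (unique molecular identifiers, 1 per captured transcript) with 10x Chromium droplet kits of version 1 (v1) and version 2 (v2). The 4 v1 libraries held all live cells of Swiss Webster pancreas, with 1 library of E14.5 in batch 1 and 1 library of each stage in batch 2, collected on another day, and the v2 libraries held live CD140a- cells of the same strain and stages, a gate that depletes mesenchyme. The remaining library (Fev-Cre E14.5, v2 kit) held GFP+ and TdTomato+ cells of Fev-Cre;ROSA26mTmG pancreas, in which Cre driven by Fev switches cells and their progeny from a red to a green membrane reporter. The paper states that these mouse lines were kept on a black inbred background, not Swiss Webster. Strain, sorting and reporter therefore differ together between this library and the others, and the part of each was not tested. Each library was 1 suspension of pooled pancreata, and the E17.5 v2 library was read in 2 technical wells that were summed.

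Prohormones enter the secretory granule as long inactive chains. The prohormone convertases PC1/3 (Pcsk1) and PC2 (Pcsk2) cut them after pairs of basic residues, carboxypeptidase E (Cpe) trims those residues from the new ends, and peptidylglycine alpha-amidating monooxygenase (Pam) turns a C-terminal glycine into an amide. In the islet, proinsulin is cut by PC1/3 and PC2, and proglucagon is cut by PC2 in alpha cells and by PC1/3 in gut L cells, so the set of convertases helps to decide which peptide a cell releases.

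Pcsk1 (ENSMUSG00000021587) lies on the plus strand of chr13:75089826-75134861 of GRCm38. Pcsk2 (ENSMUSG00000027419) lies on the plus strand of chr2:143546156-143816285. Cpe (ENSMUSG00000037852) lies on the minus strand of chr8:64592542-64693054, and Pam (ENSMUSG00000026335) on the minus strand of chr1:97795114-98095646. RefSeq promoter windows (GRCm38.p6, from 250 bases before to 50 bases after a start) matched 3 of the 4 genes. They are shown because all 3 genes rose from Ngn3+-like to Fev+-like cells below. Capitals mark TGACGTCA in the first window, and CANNTG in the other windows, which lack TGACGTCA.
Pcsk1, chr13:75089607-75089906, plus strand: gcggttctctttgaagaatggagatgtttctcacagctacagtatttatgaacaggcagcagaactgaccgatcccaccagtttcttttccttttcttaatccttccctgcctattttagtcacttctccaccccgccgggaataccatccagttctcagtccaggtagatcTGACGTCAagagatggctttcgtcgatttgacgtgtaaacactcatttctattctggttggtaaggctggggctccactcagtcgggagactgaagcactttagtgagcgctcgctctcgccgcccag
Pcsk2, chr2:143545883-143546182, plus strand: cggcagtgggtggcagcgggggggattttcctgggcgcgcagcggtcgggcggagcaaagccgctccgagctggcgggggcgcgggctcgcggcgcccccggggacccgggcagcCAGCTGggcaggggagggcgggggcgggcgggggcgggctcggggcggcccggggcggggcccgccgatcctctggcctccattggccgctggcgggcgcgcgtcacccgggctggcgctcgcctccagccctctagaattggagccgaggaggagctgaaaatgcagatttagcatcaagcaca
Pam, chr1:98095597-98095896, minus strand: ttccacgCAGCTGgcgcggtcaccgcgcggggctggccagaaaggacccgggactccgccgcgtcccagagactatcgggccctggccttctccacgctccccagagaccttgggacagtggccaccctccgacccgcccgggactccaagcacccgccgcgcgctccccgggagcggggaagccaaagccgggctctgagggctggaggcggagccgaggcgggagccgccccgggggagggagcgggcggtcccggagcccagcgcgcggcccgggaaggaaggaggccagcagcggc
The Pcsk1 window had a G and C content of 49.3% and held TGACGTCA once and CANNTG nowhere. The Pcsk2 and Pam windows each had a G and C content of 76.3% and held CANNTG once. Over 32851 promoter windows of the same length, searched on both strands, 1.79% held TGACGTCA and 72.3% held CANNTG, so the second motif is common in such windows. TATAAA was in 13.6% of all windows and in none of these 3.

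The 8 libraries held 57982 cells after filtering, of which 48414 fell into 19 classes named from fixed markers and 6796 were in the 6 endocrine classes. The 4 genes and the other genes of the processing list were kept out of the genes used for clustering, so their levels did not form the classes. Totals ran from 15671934 UMIs (v1 E14.5 batch 1) to 196793242 UMIs (v2 E17.5), and a level is given as CPM, the gene's UMIs scaled to a common total of UMIs for a class in a library with at least 20 cells. Cell barcodes shared between libraries of the same kit numbered 19 to 35 for v1 and 87 to 156 for v2. Stage was tied to dissociation time, with 10 min at E12.5, 15 min at E14.5 and 30 min at E17.5, so this time cannot be told apart from age. A litter gave a single stage, but the v1 and v2 libraries of a stage came from different litters. By the paper's account the v2 stages were each handled on a separate day, so day cannot be told apart from stage among them. The Fev-Cre library, of another strain, entered the stage comparisons as an E14.5 library of the v2 kit, with no term for strain. Aligning the Fev-Cre library with or without the reporter sequences gave the same UMI totals for all 4 genes over 7888 shared barcodes.

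Pcsk1 was found mainly in endocrine classes among the cells that could be named. Endocrine classes held 87.5% to 97.9% of the Pcsk1 UMIs of named cells (median 94.5%) while making up 2.96% to 35.3% of these cells. Over all barcodes in the matrices, with doublets, unnamed cells and barcodes removed by the gene filter counted, they held 52.1% to 91.5% (median 83.6%). The 3 CD140a- libraries were the lowest, with 52.1% at E12.5, 67.2% at the middle stage and 66.0% at E17.5. Named cells of any class held 59.4%, 71.4% and 67.8% in these, and the rest was in doublets, unnamed cells and filtered barcodes. Over all 8 libraries named cells held 59.4% to 95.1% of Pcsk1, 68.1% to 95.8% of Pcsk2, 66.4% to 94.4% of Cpe and 64.8% to 90.7% of Pam UMIs. In beta-like cells, which make insulin, Pcsk1 was at 236 CPM at the lowest (v2 E14.5), 298 CPM at the median and 469 CPM at the highest (v1 E17.5) of 6 libraries. No other class had a higher median. Epsilon-like cells, which make ghrelin, followed with 177 CPM in v2 E14.5, 198 CPM in v2 E17.5 and 159 CPM in Fev-Cre E14.5, all under the beta-like range, which with Scrublet doublets left out began at 47.2 CPM and was no longer apart. Fev+-like progenitors had a median of 176 CPM over 7 libraries (43.2 to 252), and delta-like cells, which make somatostatin, had 136 CPM in v2 E14.5, 273 CPM in Fev-Cre E14.5, 168 CPM in v1 E17.5 and 175 CPM in v2 E17.5. The Fev+-like and delta-like ranges reached into the beta-like one. Alpha-like cells, which make glucagon, stood lower with a median of 94.8 CPM over 8 libraries (46.3 to 157), and Ngn3+-like progenitors had 53.9 CPM over 7 libraries (25.2 to 112). From epsilon-like cells down to Ngn3+-like cells each class overlapped the next in this order. Below Ngn3+-like cells there was a gap, since acinar-like cells, with the highest median of the rest, were at 3.06 CPM over 8 libraries and reached 8.59 CPM. The gap depended on the clustering and filter, since the lowest Ngn3+-like level was 1.55 CPM at Leiden resolution 2 and 4.80 CPM with library not regressed out, and with 500 genes per barcode erythroid-like cells reached 44.8 CPM against a lowest Ngn3+-like level of 27.7 CPM. In glia-like cells no Pcsk1 UMI was seen in 4 of 5 libraries, where a count of 0 allows up to 1.49 CPM (v2 E12.5) to 31.0 CPM (v1 E14.5 batch 2), and the level in the Fev-Cre library was 3.25 CPM. Intervals and such limits cover counting error only.

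Pcsk2 had a like distribution, with 92.6% to 98.5% of its UMIs in named cells in endocrine classes (median 95.7%), and 64.5% to 88.7% over all barcodes. In delta-like cells Pcsk2 was at 942 CPM in v2 E14.5, 984 CPM in Fev-Cre E14.5, 1978 CPM in v1 E17.5 and 2555 CPM in v2 E17.5. Beta-like cells had a median of 1319 CPM over 6 libraries (877 to 1782), and alpha-like cells had 1069 CPM over 8 libraries (781 to 2450). The order of these 3 classes was not separated by the libraries. Fev+-like cells were below them with 410 CPM (259 to 675). With library not regressed out they had 625 CPM (466 to 838) and overlapped alpha-like cells (from 737 CPM) and beta-like cells (from 775 CPM), and with Scrublet they (281 to 624 CPM) overlapped beta-like cells (from 455 CPM). Epsilon-like cells were the exception among hormone-producing classes, with 42.4 CPM in v2 E14.5 and 41.2 CPM in v2 E17.5, and 403 CPM in Fev-Cre E14.5. In the Fev-Cre library that class also carried Gcg, the glucagon gene, at 8724 CPM, against 28.3 and 48.9 CPM in the other two, and Ghrl, the ghrelin gene, at 10605 CPM against 41290 and 74403 CPM. Results on epsilon-like cells are therefore given with and without that library. Ngn3+-like cells had a median of 14.1 CPM over 7 libraries, with 2 libraries at 0, which allows up to 37.2 CPM in v1 E12.5 and 14.6 CPM in v1 E14.5 batch 2. This median was 5.24 CPM at resolution 2 and 52.9 CPM with library not regressed out.

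Cpe was high in every endocrine class beyond the Ngn3+-like step and was also found outside them. Alpha-like cells had a median of 2463 CPM over 8 libraries (1360 to 3391), Fev+-like cells had 1870 CPM over 7 (1035 to 2371), and beta-like cells had 1784 CPM over 6 (1400 to 2596). Epsilon-like cells had 1329, 757 and 1688 CPM in v2 E14.5, v2 E17.5 and Fev-Cre E14.5. Delta-like cells had 1581 CPM in v2 E14.5, 1225 CPM in Fev-Cre E14.5, 1115 CPM in v1 E17.5 and 1023 CPM in v2 E17.5. All 5 classes overlapped. Ngn3+-like cells came next with 291 CPM (133 to 340), in the same range as mesenchymal-like cells with 216 CPM over 7 libraries (28.3 to 755) and VSM-like cells (vascular smooth muscle) with 210 CPM over 8 (52.5 to 1225). Endocrine classes held 42.3% to 88.0% of the Cpe UMIs of named cells, and 38.8% to 80.3% over all barcodes. The 88.0% was in the Fev-Cre library, sorted to enrich GFP+ cells, and the v1 libraries of all live cells held 42.3% to 62.3%.

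Pam had its highest levels in alpha-like cells, with a median of 525 CPM over 8 libraries (336 to 629). Delta-like cells had 387 CPM in v2 E14.5, 449 CPM in Fev-Cre E14.5, 337 CPM in v1 E17.5 and 459 CPM in v2 E17.5, within the alpha-like range. Fev+-like cells had 281 CPM over 7 libraries (240 to 418) and beta-like cells 246 CPM over 6 (105 to 288). The lowest beta-like value was in v2 E17.5, where hormone precursor transcripts took 45.8% of UMIs. With these left out of the total, beta-like cells were at 194 to 308 CPM and alpha-like cells at 384 to 733 CPM. Epsilon-like cells had 205 and 191 CPM in v2 E14.5 and v2 E17.5, and 580 CPM in the Fev-Cre library. Pam was more abundant in glia-like cells (62.1 CPM at the median of 5 libraries, 42.3 to 118) than in Ngn3+-like progenitors (13.3 CPM, 0 to 36.0). Medians were also above the Ngn3+-like one in neuron-like, endothelial-like, VSM-like, mesothelial-like and mesenchymal-like cells (31.6 to 65.6 CPM). Pcsk2 in glia-like cells, at 0.995 to 26.0 CPM, was within the Ngn3+-like range of 0 to 64.4 CPM. Endocrine classes held 41.0% to 88.0% of the Pam UMIs of named cells, and 27.6% to 78.8% over all barcodes. Here too the 88.0% was in the Fev-Cre library, and the v1 libraries held 41.0% to 53.5%.

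**Figure D1:**
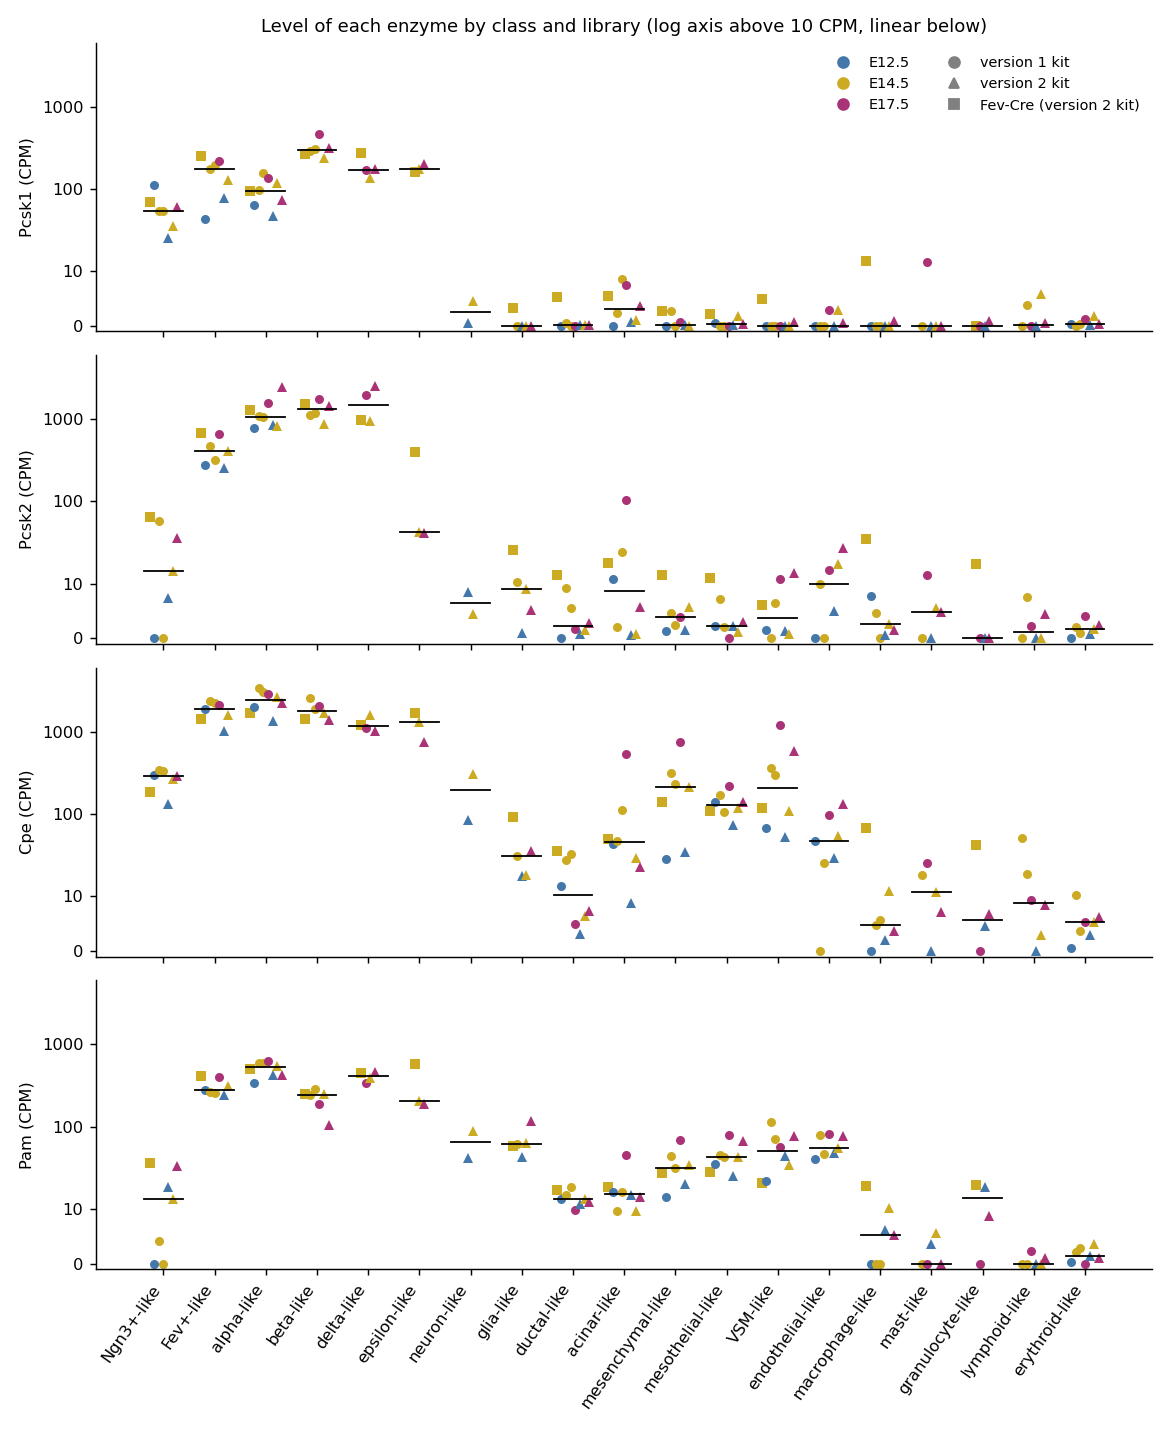
Level of each enzyme (CPM, log axis above 10 and linear below) in 19 classes, with 1 point per library, colour for stage, shape for kit and a bar at the median. Pcsk1 is at 25.2 CPM or more in the 6 endocrine classes and at most 13.2 CPM elsewhere, and Pcsk2 is at 781 CPM or more in alpha-like, beta-like and delta-like cells but at 0 to 64.4 CPM in Ngn3+-like cells, while Cpe and Pam have most points above 10 CPM also in mesenchymal-like, mesothelial-like, VSM-like and endothelial-like cells.

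The first comparison asked what separates the earliest endocrine progenitors from the ductal cells beside them. Ngn3+-like cells carry the transcription factor that starts the endocrine program. Pcsk1 was 6.02 ± 0.51 (SE) higher on the log2 scale in Ngn3+-like than in ductal-like cells (edgeR quasi-likelihood test with Benjamini-Hochberg adjustment, adjusted p = 2.3e-07) and was higher in 7 of 7 libraries. This difference was 7.54 without Fev-Cre and 5.32 without v2 E17.5, and called in both cases. Cpe was 4.29 ± 0.36 higher (adjusted p = 2.0e-07, 7 of 7 libraries), and Pcsk2 was 2.83 ± 0.32 higher (adjusted p = 5.1e-06, 5 of 7 libraries). Pam was not separated from ductal-like cells, with a difference of 0.55 ± 0.31 (adjusted p = 0.15), higher in 4 of 7 libraries. Thus 3 of the 4 genes passed the threshold used throughout, an adjusted p below 0.05 and at least a 2-fold difference, where 31.1% of 11097 genes tested did so.

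At the next step, from Ngn3+-like to Fev+-like cells, all 4 genes rose, where 16% of 7162 genes tested were called. Pcsk2 rose by 4.01 ± 0.25 (log2, SE, adjusted p = 1.1e-09) and Pam by 3.93 ± 0.22 (adjusted p = 3.6e-10), each in 6 of 6 libraries. Cpe rose by 2.69 ± 0.09 (adjusted p = 1.2e-12) in 6 of 6 libraries. Pcsk1 rose by 1.56 ± 0.19 (adjusted p = 3.6e-06) in 5 of 6 libraries, and in v1 E12.5, with 21 Ngn3+-like and 20 Fev+-like cells, it was lower. Before this step, Ngn3+-like cells already had Pcsk1 and Cpe above the ductal-like level, while Pam was at 0 to 36.0 CPM in them and at 240 CPM or more in Fev+-like cells. The v1, v2 and Fev-Cre cells were clustered as separate sets, so the border between these classes may differ between sets. In v2 E17.5, 267 cells were Ngn3+-like and 1 was Fev+-like, against 11 and 82 in v1 E17.5.

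Within the Fev+-like cells, clusters were named Fev+/Pax4+-like or Fev+/Chgb+-like from marker lists that hold Pax4, a beta cell factor, or Chgb, a granule protein. They were compared in the 3 libraries with at least 20 cells of each. In the v2 libraries of Swiss Webster all Fev+-like cells were Fev+/Chgb+-like, and whether early Fev+ cells there were named Ngn3+-like was not tested. In the Fev-Cre library Chgb was not among the 10 leading genes of either Fev+/Chgb+-like cluster, and Fev was among those of 1 of them. Pcsk2 in Fev+/Pax4+-like cells was 107 CPM in v1 E14.5 batch 1, 86.2 CPM in batch 2 and 222 CPM in Fev-Cre E14.5, and in Fev+/Chgb+-like cells of the same libraries it was 653, 439 and 738 CPM. The clusters did not overlap. Pam was 91.9, 57.4 and 179 CPM in Fev+/Pax4+-like cells and 345, 358 and 451 CPM in Fev+/Chgb+-like cells, again without overlap. Cpe was lower in Fev+/Pax4+-like cells of each library (1349, 1651 and 1000 CPM against 2850, 2489 and 1479 CPM), though the ranges overlapped. Pcsk1 had no such order, with 306, 165 and 222 CPM against 115, 211 and 256 CPM. These differences were not tested.

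**Figure D2:**
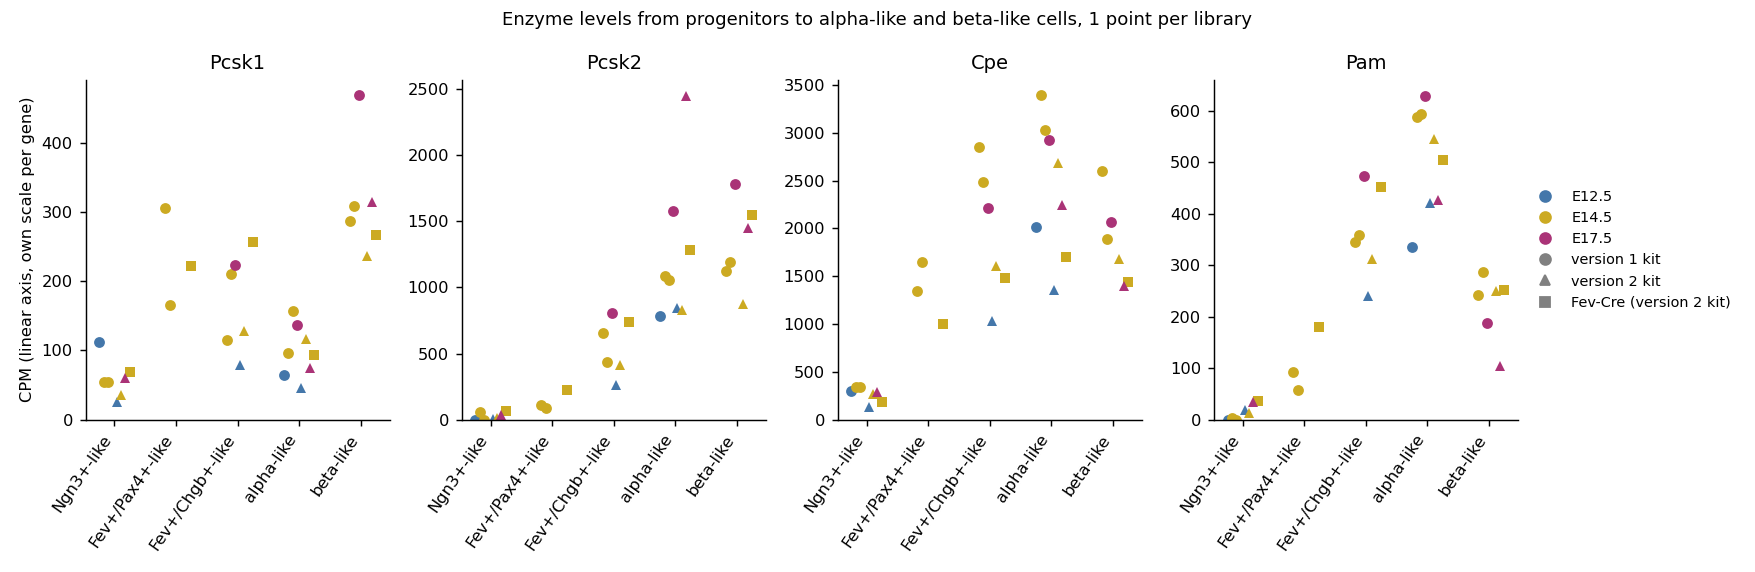
CPM of each enzyme (linear axis with its own scale per gene) in Ngn3+-like, Fev+/Pax4+-like, Fev+/Chgb+-like, alpha-like and beta-like cells, with 1 point per library. Pcsk2 is at 0 to 64.4 CPM in Ngn3+-like cells, 86.2 to 222 CPM in Fev+/Pax4+-like cells and 259 to 809 CPM in Fev+/Chgb+-like cells. Pam is at 0 to 36.0, 57.4 to 179 and 240 to 474 CPM in these. In beta-like cells Pam goes down to 105 CPM in v2 E17.5, which is 194 CPM with hormone precursor transcripts left out of the total.

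From Fev+-like to alpha-like cells only Pcsk2 passed both thresholds, with a rise of 1.48 ± 0.11 (log2, SE, adjusted p = 1.3e-08) in 7 of 7 libraries, where 8.02% of 6986 genes tested were called. Pam was 0.91 ± 0.11 higher (adjusted p = 8.4e-06) and Cpe 0.61 ± 0.08 higher (adjusted p = 1.6e-05), each in 7 of 7 libraries but under the 2-fold limit. Pcsk1 differed by -0.54 ± 0.17 (adjusted p = 0.024) and was lower in 6 of 7 libraries. Toward beta-like cells, Pcsk2 rose by 1.61 ± 0.11 (adjusted p = 5.3e-08) in 5 of 5 libraries, where 8.13% of 6941 genes were called. Pcsk1 was 0.85 ± 0.15 higher (adjusted p = 0.00056) in 5 of 5 libraries. Cpe was 0.25 ± 0.09 higher (adjusted p = 0.053), with its CPM higher in 3 of 5 libraries and lower in 2. Pam was -0.20 ± 0.12 (adjusted p = 0.25), with its CPM lower in 4 of 5. Without the Fev-Cre library Pcsk1 in beta-like cells passed both thresholds at 1.12, and Pam in alpha-like cells did so at 1.04.

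Alpha-like and beta-like cells were compared to ask whether the enzyme set follows the hormone. Pcsk1 was 1.74 ± 0.20 (log2, SE) higher in beta-like cells (adjusted p = 1.4e-05), higher in 6 of 6 libraries, and Pam differed by -1.14 ± 0.09 (adjusted p = 3.4e-07), lower in 6 of 6. Pcsk2 and Cpe differed by less than 2-fold, by 0.20 ± 0.08 (adjusted p = 0.076) and -0.32 ± 0.10 (adjusted p = 0.027). Of the 4 genes, 2 were called, where 8.3% of 9172 genes tested were. Both genes were called under every alternative run and with any 1 library left out.

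Delta-like cells had less Pcsk1 than beta-like cells, by -1.03 ± 0.21 (log2, SE, adjusted p = 0.0018), close to the 2-fold limit and higher in 1 of 4 libraries (Fev-Cre E14.5). Of 8678 genes tested, 9.09% were called. Pam was 0.88 ± 0.15 higher (adjusted p = 0.00044) in 4 of 4 libraries, and Cpe was -0.69 ± 0.15 (adjusted p = 0.0033), lower in 4 of 4. Pcsk2 was -0.17 ± 0.14 (adjusted p = 0.48), though its CPM was higher in delta-like cells in 3 of 4 libraries. The Pcsk1 call was lost without v1 E17.5 (-0.91), without v2 E17.5 (-0.64, adjusted p = 0.057), with no library block (-1.07, adjusted p = 0.12) and with Scrublet doublets left out (-0.98).

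Epsilon-like cells were compared with alpha-like cells in 3 libraries. Over these, none of the 4 genes was called by edgeR, where 0.744% of 9271 genes were called and 1436 genes, all 4 of these among them, had an unadjusted p below 0.05. Pcsk2 was -3.71 ± 0.69 (log2, SE, adjusted p = 0.057), lower in 3 of 3 libraries, and DESeq2 called it at -4.04 (adjusted p = 0.0085). Without the Fev-Cre library, whose epsilon-like cells carried Gcg, Pcsk2 was -5.40 (adjusted p = 4.3e-67), Cpe -1.39 (adjusted p = 3.6e-08) and Pam -1.38 (adjusted p = 8.8e-11), all called, in 2 libraries of 56 and 43 epsilon-like cells, where 12.2% of 7470 genes tested were called (913 in place of 69). Without v2 E17.5 Pcsk2 was -2.67 (adjusted p = 0.0026, called), and without v2 E14.5 it was -3.55 (adjusted p = 0.35). With 2 libraries the spread behind such adjusted p-values is mostly borrowed from other genes, so they say little about the spread between pools. Pcsk1 was 0.88 ± 0.20 higher over the 3 libraries (adjusted p = 0.087) and 0.94 ± 0.21 higher without Fev-Cre (adjusted p = 0.00010), under the 2-fold limit.

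**Figure D3:**
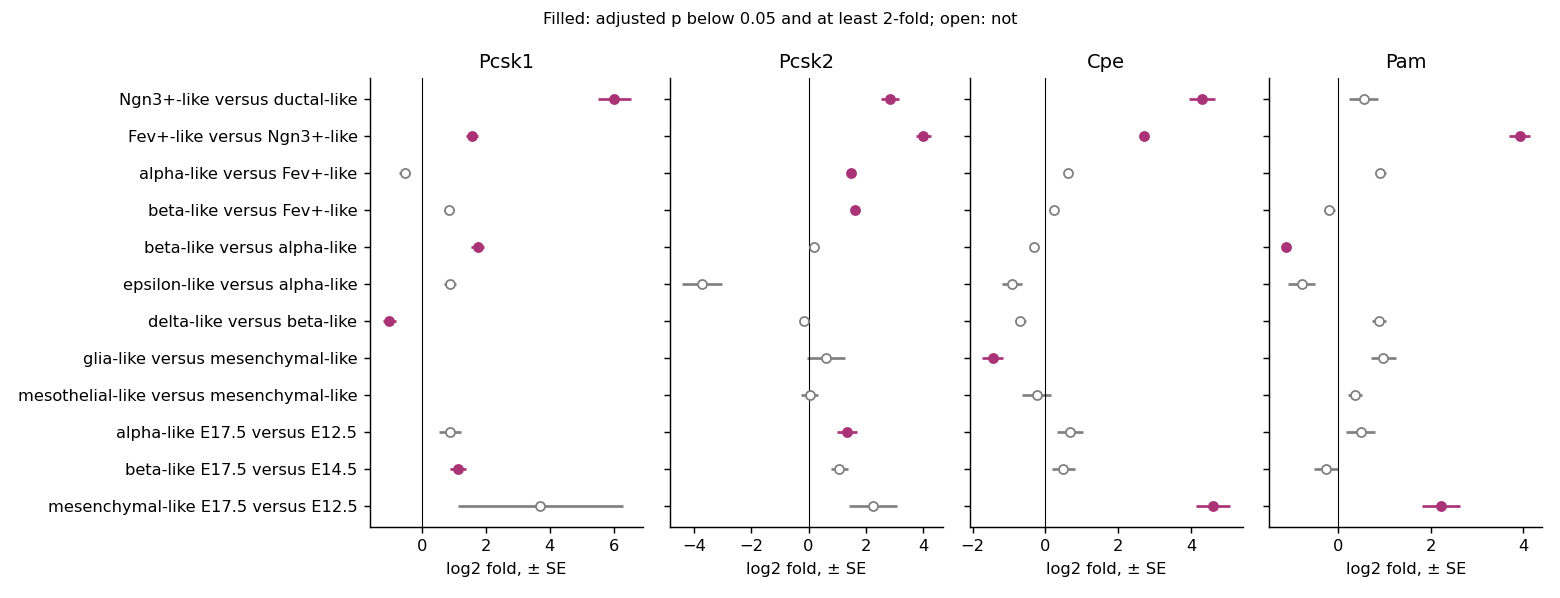
Log2 fold of each enzyme with its SE in 12 comparisons from edgeR, filled where the adjusted p was below 0.05 and the difference at least 2-fold. All 4 genes are filled for Fev+-like against Ngn3+-like cells, and beta-like against alpha-like cells are filled in opposite directions for Pcsk1 (1.74) and Pam (-1.14).

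The balance of the convertases was then measured within each class. Of all Pcsk1 and Pcsk2 UMIs, Pcsk1 made up 48.1% to 77.4% in Ngn3+-like cells (5 libraries with at least 20 such UMIs) and 13.3% to 37.7% in Fev+-like cells (7 libraries). The share was 2.94% to 13.0% in alpha-like cells (8 libraries) and 14.7% to 21.2% in beta-like cells (6 libraries), with no overlap between these. Delta-like cells had 6.42% to 21.7% (4 libraries) and overlapped both. Epsilon-like cells had 80.6% and 82.8% in the v2 libraries and 28.3% in the Fev-Cre library. A UMI share says how the balance shifts between classes, not how many transcripts of each gene a cell holds, since capture may differ between genes.

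The same was visible in single cells thinned to 3000 UMIs in the v2 kit libraries. In alpha-like cells 57.8% to 81.1% had a UMI of Pcsk2 and none of Pcsk1, and 6.11% to 24.2% had both. In beta-like cells 41.7% to 54.5% had both, 42.4% to 48.6% had Pcsk2 alone and 1.45% to 4.71% had Pcsk1 alone. In epsilon-like cells of v2 E14.5 and v2 E17.5, 33.9% and 34.9% had Pcsk1 alone and 8.93% and 6.98% had Pcsk2 alone. Most of them had neither (55.4% and 51.2%), and 1.79% and 6.98% had both. In epsilon-like cells of the Fev-Cre library (153 cells) 14.4% had Pcsk1 alone, 31.4% had Pcsk2 alone, 19.6% had both and 34.6% had neither. Ngn3+-like cells were mostly without either, with 78.7% to 92.6% showing no UMI. For background, ductal-like cells thinned alike had a Pcsk2 UMI in 0.164% to 3.72% of cells and a Pcsk1 UMI in 0.0489% to 1.72%, with median depths of 5812 to 12605 UMIs against 4236 to 7414 UMIs in Ngn3+-like cells. The Ngn3+-like shares with a Pcsk2 UMI (2.08% to 7.49%) overlapped that background range, and those with a Pcsk1 UMI (5.95% to 15.4%) did not. Within each of these libraries the Pcsk2 level was higher in Ngn3+-like than in ductal-like cells, by 2.26 to 3.24 on the log2(CPM + 1) scale. No cell of these classes was shallower than 3000 UMIs, and without thinning the Ngn3+-like shares were 3.87% to 15.4% for Pcsk2 and 10.1% to 28.4% for Pcsk1.

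**Figure D4:**
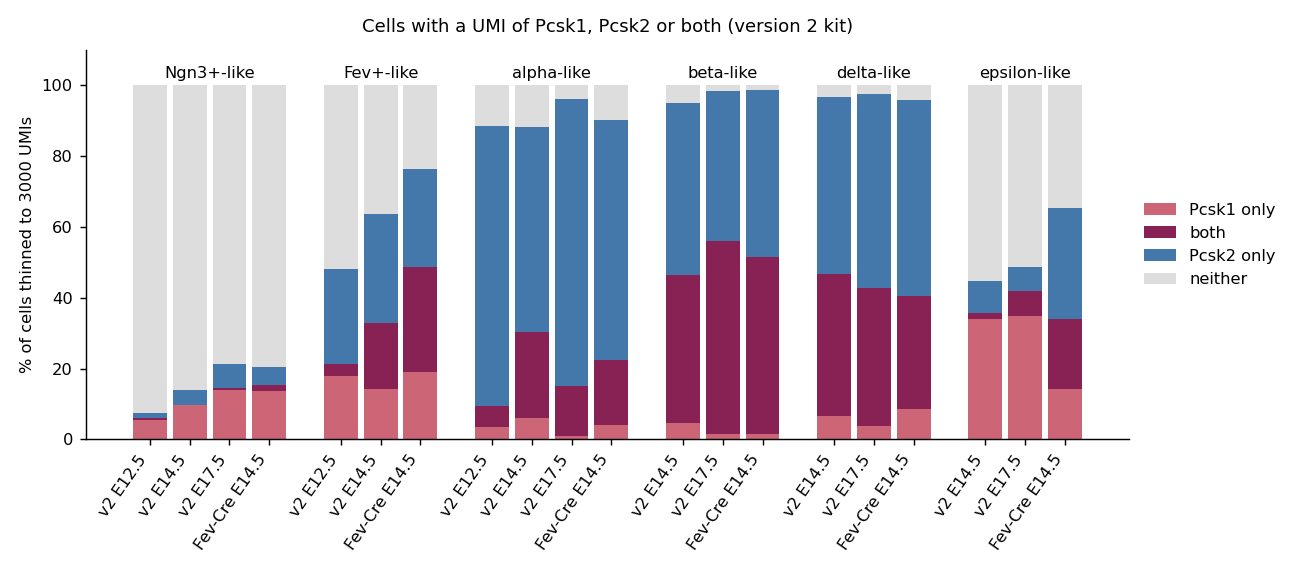
Percent of cells, thinned to 3000 UMIs, with a UMI of Pcsk1 only, both genes, Pcsk2 only or neither, by class and v2 kit library (stacked bars). Cells with Pcsk2 only fill most of the alpha-like bars (57.8% to 81.1%), the beta-like bars are mostly cells with both (41.7% to 54.5%) or with Pcsk2 only (42.4% to 48.6%), and cells with neither fill most of the Ngn3+-like bars (78.7% to 92.6%).

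Pcsk2 in alpha-like cells was 781 and 843 CPM at E12.5 (v1 and v2), between 830 and 1285 CPM in the 4 libraries of E14.5, and 1575 and 2450 CPM at E17.5 (v1 and v2). The stages E12.5 and E17.5 did not overlap. Pcsk2 rose by 1.35 ± 0.35 (log2, SE, adjusted p = 0.042) from E12.5 to E17.5, the 1 gene of the 4 called where 2.75% of 8713 genes tested were. The call was lost without any of v1 E12.5, v1 E14.5 batch 2, v1 E17.5, v2 E12.5 or v2 E17.5, with differences from 0.96 to 1.65, and with the collection batch of the v1 libraries as a block in place of the kit (1.32, adjusted p = 0.055). The calls over all genes went from 240 to 22 without v2 E17.5, 26 without v2 E12.5, 88 without v1 E12.5 and 157 without v1 E17.5. Pcsk1 was 0.88 ± 0.35 higher (adjusted p = 0.24), Cpe 0.68 ± 0.36 (adjusted p = 0.44) and Pam 0.48 ± 0.31 (adjusted p = 0.55).

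Pcsk1 in beta-like cells was 287 CPM in v1 E14.5 batch 1, 309 CPM in batch 2, 236 CPM in v2 E14.5 and 266 CPM in Fev-Cre E14.5, and 469 and 315 CPM at E17.5 (v1 and v2). The E17.5 values lay above all E14.5 values, though v2 E17.5 only just. Hormone precursor transcripts took 45.8% of all beta-like UMIs in v2 E17.5 and 24.4% in v1 E17.5, against 6.53% to 17.3% at E14.5, which lowers the CPM of every other gene. With the 11 peptide precursors left out of the total, Pcsk1 was 621 and 581 CPM at E17.5 (v1 and v2) and 285 to 330 CPM at E14.5. In edgeR Pcsk1 rose by 1.12 ± 0.25 (log2, SE, adjusted p = 0.044), the 1 gene of the 4 called where 1.33% of 8487 genes tested were. Pcsk2 was 1.08 ± 0.30 higher (adjusted p = 0.10), and DESeq2 called it (adjusted p = 0.0028). Pam was -0.27 ± 0.26 (adjusted p = 0.80). The Pcsk1 call was lost without any 1 library except v2 E14.5, with differences of 1.07 to 1.20, and with the batch as a block (adjusted p = 0.075). The calls over all genes went from 113 to 3 without v2 E17.5 and 46 without Fev-Cre.

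Outside the endocrine classes, Cpe in mesenchymal-like cells followed stage. It was 28.3 and 34.4 CPM at E12.5 (v1 and v2), 140 to 319 CPM in the 4 libraries of E14.5, and 755 CPM at E17.5 (v1, the only library with mesenchymal-like cells at that stage, since 0 cells of v2 E17.5 were in that class). The v2 cells of this class, 1621 at E12.5 and 73 at E14.5, are those left after the CD140a- gate. The stages did not overlap. Cpe rose by 4.61 ± 0.47 (log2, SE, adjusted p = 0.00040) from E12.5 to E17.5, and Pam by 2.22 ± 0.42 (adjusted p = 0.012), from 13.8 and 20.2 CPM to 68.4 CPM. These were 2 of 4 genes where 4.86% of 13936 genes were called. The peptide precursors, which endocrine cells make, moved with these genes, since 7 of 11 rose in the same comparison. The E17.5 side rests on 1 library, so the SE and p come from the spread among libraries of the other stages, and that library is assumed to vary like them. Cpe was 3.99 without v1 E12.5, and the calls over all genes went from 677 to 92 without v1 E12.5 and 1032 without Fev-Cre. The Pam call was lost without v1 E12.5 (1.61, adjusted p = 0.46) and with library not regressed out in the clustering (2.14, adjusted p = 0.089). Pcsk1 was 3.70 ± 2.58 (adjusted p = 0.53) and Pcsk2 2.25 ± 0.83 (adjusted p = 0.18), and Pcsk2 was called with Scrublet doublets left out (3.65, adjusted p = 0.012) and with library not regressed out (3.91, adjusted p = 0.047).

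The part of RNA from endocrine cells in this was not tested, and the levels of both are given side by side. In the v1 mesenchymal-like cells the 11 precursors together were at 39.6 CPM at E12.5, 152 and 129 CPM at E14.5 and 179 CPM at E17.5. Per 100 precursor UMIs, Cpe was at 421 UMIs in mesenchymal-like cells of v1 E17.5, which was 328 times the ratio in endocrine cells of that library. In Fev-Cre E14.5, where precursors reached 1388 CPM in mesenchymal-like cells, this factor was 3.50. For Pcsk2 the factor in mesenchymal-like cells was 0.44 to 5.29 and for Pcsk1 0 to 5.83 over 7 libraries, against 3.50 to 328 for Cpe.

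In VSM-like cells Cpe was at 67.8 and 52.5 CPM at E12.5 (v1 and v2), 108 to 359 CPM in 4 libraries of E14.5, and 1225 and 577 CPM at E17.5 (v1 and v2). The E17.5 values lay above all others, with 26 cells behind the first and 367 behind the second. The 11 peptide precursors in VSM-like cells went from 26.2 CPM at E12.5 to 225 CPM at E17.5 in v1 and from 144 to 1539 CPM in v2, and their part in this was not tested. Mesothelial-like cells, which line the organ, had Cpe at 139 and 73.3 CPM at E12.5, 106 to 171 CPM at E14.5 and 217 and 138 CPM at E17.5. Stages were not compared by a test in VSM-like or mesothelial-like cells, and VSM-like cells were not tested against mesenchymal-like cells. Against mesenchymal-like cells over all stages, mesothelial-like cells differed by -0.24 ± 0.40 (log2, SE, adjusted p = 0.70) in Cpe and 0.36 ± 0.15 (adjusted p = 0.082) in Pam. Thus 0 of the 3 genes tested were called by edgeR (1 of the 3 had an unadjusted p below 0.05, and DESeq2 called 0), where 16.4% of 12501 genes were called. The Pcsk1 counts were too low to be tested there.

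**Figure D5:**
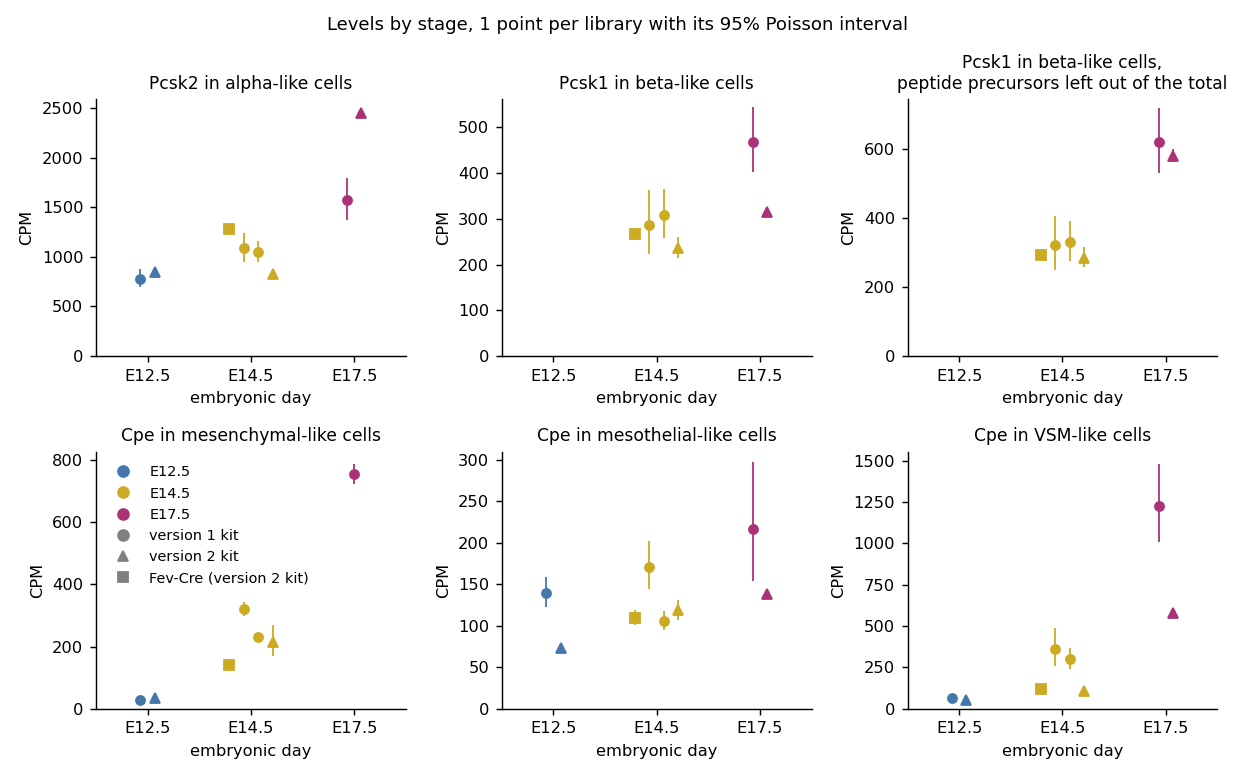
CPM with its exact 95% Poisson interval against embryonic day, with 1 point per library, for 5 gene and class pairs and for Pcsk1 in beta-like cells with peptide precursors left out of the total. Cpe in mesenchymal-like cells goes from 28.3 and 34.4 CPM at E12.5 to 755 CPM at E17.5 and in VSM-like cells to 577 and 1225 CPM, while mesothelial-like cells are at 73.3 to 217 CPM.

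Glia-like cells, which arise from the neural crest, had Cpe at 17.4 CPM in v2 E12.5, 31.0 CPM in v1 E14.5 batch 2, 17.9 CPM in v2 E14.5, 91.1 CPM in Fev-Cre E14.5 and 36.0 CPM in v2 E17.5. The 11 peptide precursors were at 267 to 1545 CPM in these cells, and Cpe per precursor UMI was 1.72 to 5.66 times the ratio in endocrine cells (2.05 in Fev-Cre). Of the precursors, 2 of 10 tested were called higher in glia-like than in mesenchymal-like cells, where 14.7% of all genes tested were called. Neither the part of endocrine RNA in these levels nor that of precursor transcripts made by glia-like cells was tested. Cpe was -1.45 ± 0.29 (log2, SE, adjusted p = 0.00045) against mesenchymal-like cells, lower in 4 of 4 libraries, the 1 gene called of 3 tested where 14.7% of 10133 genes were. The call was lost with Scrublet doublets left out in place of the doublet rule used here (-0.72) and with no library block (adjusted p = 0.091). Pam was 0.98 ± 0.27 higher in glia-like cells (adjusted p = 0.010) in 4 of 4 libraries, just under 2-fold. Neuron-like cells, counted in 2 libraries, had Cpe at 84.6 CPM in v2 E12.5 and 308 CPM in v2 E14.5, Pam at 41.8 and 89.4 CPM, and Pcsk2 at 8.46 and 4.47 CPM.

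Acinar-like cells of v1 E17.5 stood apart from the other acinar-like sums, with Cpe at 531 CPM against 8.78 to 112 CPM and Pcsk2 at 105 CPM against 0.615 to 24.5 CPM. They were 42 cells, and peptide precursors in them were at 11497 CPM against 94.3 to 2277 CPM elsewhere. The part of free RNA or mixed droplets in this was not tested.

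Of 23 other genes on a list for the processing pathway, Scg5 was called in the most comparisons. It encodes 7B2, a chaperone of PC2, and rose with Pcsk2 from ductal-like to Ngn3+-like cells (3.69 ± 0.42, log2, SE), on to Fev+-like cells (2.92 ± 0.16), and from there to alpha-like (1.16 ± 0.14) and beta-like cells (1.01 ± 0.10). It was higher in glia-like (3.18 ± 0.33) and mesothelial-like (2.41 ± 0.40) than in mesenchymal-like cells, where Pcsk2 did not pass the test. Pcsk1n and Furin are named for their roles after their values were seen. Pcsk1n, which encodes proSAAS, an inhibitor of PC1/3, rose at the Ngn3+-like (3.75 ± 0.54) and Fev+-like (3.80 ± 0.20) steps and was higher in glia-like than mesenchymal-like cells (1.42 ± 0.38). Tpst1, a tyrosylprotein sulfotransferase, was called in 5 comparisons, 3 higher and 2 lower. Called in 4 comparisons each were Ece1, an endothelin-converting enzyme (4 higher), Qpct, a glutaminyl cyclase (3 higher, 1 lower), and the carboxypeptidases Cpm and Cpn1 (2 higher and 2 lower each).

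From Ngn3+-like to Fev+-like cells 4 of 14 tested rose and 0 fell, where 16% of all genes tested were called, with a median of 0.28 (log2) against 0.03 over all genes. From ductal-like to Ngn3+-like cells 8 of 19 rose and 2 fell, where 31.1% were called, with a median of 0.47 against -0.04. Beta-like against alpha-like cells had 2 higher and 4 lower of 18 tested, where 8.3% were called. Alpha-like against Fev+-like had 5 higher of 16 (all genes 8.02%), and beta-like 1 higher and 1 lower of 15 (8.13%). Delta-like against beta-like had 2 higher of 17 (9.09%). Against mesenchymal-like cells, glia-like had 3 higher and 3 lower of 18 (14.7%), and mesothelial-like 6 and 1 of 23 (16.4%). Epsilon-like against alpha-like had 0 of 18 (0.744%). Stages had 0 of 17 in alpha-like (2.75%), 0 of 18 in beta-like (1.33%) and 3 higher of 23 in mesenchymal-like cells (4.86%). Furin, the widely expressed convertase of the constitutive pathway, was called in 0 of the 9 comparisons in which it was tested.

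The genes most like each enzyme over 117 class and library sums, by Pearson r of log2(CPM + 1) among 8582 genes, were found as a description only, since the sums share libraries, depth and the contrast of endocrine with other cells. For Pcsk1 these were Scgn (0.94), Rimbp2 (0.93) and Pax6 (0.93). For Pcsk2 they were Pcsk2os1 (0.92), Rnf138rt1 (0.92) and Tmem27 (0.92). Pcsk2os1 lies on the opposite strand at chr2:143535476-143547837 and overlaps the start of Pcsk2, and the sources used here do not say whether strand was used in counting. For Cpe they were Aplp1 (0.88), Isl1 (0.87) and Rab3a (0.87), and for Pam they were Mageh1 (0.85), Rai2 (0.83) and Tspan7 (0.83). Among the enzymes themselves, Pcsk1 and Pcsk2 were most alike (0.86) and Pcsk1 and Pam least (0.59).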

How the data were processed

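Single cells of fetal mouse pancreas were sequenced by 10x Chromium, and the deposited files are counts: UMIs per gene and barcode, which the authors made with Cell Ranger (1.1 and 2.1 in the submitters' processing notes, which name mm10) without normalization. Barcodes with at least 200 genes were kept. The v1, v2 and Fev-Cre cells were clustered as separate sets with Leiden (leidenalg 0.10.2, resolution 1, 2000 variable genes, 20 components). Log total UMIs, and library where a set held several, were regressed out. The 4 enzymes and the processing list were left out of the variable genes, and clusters were named from marker lists. Scrublet, used as an alternative, was run with scanpy 1.11.5. Cells carrying marker panels of 2 classes that exclude each other were set aside as doublets (0.152% to 6.69% of cells per library), and 2.03% to 23.7% stayed unnamed. Median depth was 2952 to 11256.5 UMIs per kept cell.

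UMIs were summed per class and library with at least 20 cells. Classes were compared with edgeR 4.0.16 (R 4.3.3; quasi-likelihood test, TMM scaling, low-count filter) with library as a block, and stages with a kit term, using Benjamini-Hochberg adjustment over all genes tested. Classes of 1 library deviated together (correlations of 0.184 to 0.826), which is why the library is the block. Correlations between libraries reached 0.395 in alpha-like against Fev+-like cells, above the lowest within a library there (0.334). The same held for Fev+-like against Ngn3+-like (0.293 and 0.197) and beta-like against alpha-like cells (0.325 and 0.306), but not for the other comparisons. Each library is 1 pool of pancreata, so p-values measure the spread between pools. In fits on 2 libraries that spread is mostly borrowed from other genes. The counts of libraries in which a gene was higher or lower compare log2(CPM + 1) without TMM scaling, so they can differ in direction from the edgeR folds. Only the beta-like against alpha-like fit was tried on simulated counts, drawn without shared library deviations, so the other designs were not checked. Alternatives were DESeq2 1.42.0, no low-count filter, no library block or kit term, 500 genes per barcode, Scrublet, resolution 2, library not regressed out, v2 kit only and leaving out each library. Leaving the 11 peptide precursors out of the total, and a block for the collection batch that the labels give for v1 libraries (batch 2 joins the 3 stages, batch 1 holds E14.5 only), were added after seeing the data. The enzymes and gene lists were chosen with earlier results of these data known. Named genes were the 4 enzymes, the list genes called in the most comparisons and the 3 genes most like each enzyme. Pcsk1n and Furin were added for their roles after their values were seen. Promoters are from RefSeq.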

Additional observations from a re-analysis of the deposited data

Results flagged for a closer look

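Cpe in mesothelial-like against mesenchymal-like cells went in opposite directions at E12.5 and E14.5, with all libraries of a stage on the same side. The difference on the log2(CPM + 1) scale was 2.26 in v1 E12.5 and 1.07 in v2 E12.5, a median of 1.664. At E14.5 it was -0.89 in v1 batch 1, -1.12 in v1 batch 2, -0.86 in v2 and -0.35 in Fev-Cre. In v1 E17.5 it was -1.80. Cpe in mesothelial-like cells was between 73.3 and 217 CPM throughout, while in mesenchymal-like cells it went from 28.3 CPM in v1 E12.5 to 755 CPM in v1 E17.5. The difference between the stages was not tested.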

How the results depend on the processing

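Of the 12 comparisons, Ngn3+-like against ductal-like, Fev+-like against Ngn3+-like, beta-like against alpha-like and mesothelial-like against mesenchymal-like kept their number of called enzymes in every alternative run. Alpha-like against Fev+-like had 2 called with 500 genes per barcode and 1 to 2 when a library was left out, and beta-like against Fev+-like had 1 to 2. Epsilon-like against alpha-like had 1 called under DESeq2, no low-count filter, Scrublet and library not regressed out, and 0 to 3 on leaving out a library. Delta-like against beta-like had 0 with no library block, Scrublet, library not regressed out and v2 only, and 0 to 2 on leaving out a library. Glia-like against mesenchymal-like had 0 with no block and Scrublet and 2 with 500 genes and resolution 2. Alpha-like stages had 0 with no kit term, library not regressed out and v2 only, and 0 to 1 on leaving out a library. Beta-like stages had 2 under DESeq2, 0 with no kit term, 500 genes, resolution 2 and v2 only, and 0 to 1 on leaving out a library. Mesenchymal-like stages had 1 to 2 on leaving out a library, and 3 with Scrublet. The causes were not tested. Of the enzymes' log2 folds under alternatives, 573 kept direction and side of the threshold, 29 were weaker, 17 stronger and 16 reversed. The reversed folds were Pam in Ngn3+-like against ductal-like cells at resolution 2 (-0.31), Pam in beta-like against Fev+-like cells with 500 genes (0.21), Pcsk2 in delta-like against beta-like cells without Fev-Cre (-0.25 to 0.012 on leaving out a library), and Pcsk2 in glia-like against mesenchymal-like cells at resolution 2 (-0.15). In mesothelial-like against mesenchymal-like cells Cpe reversed with Scrublet (0.077), resolution 2 (0.048), library not regressed out (0.0014), v2 only (0.026) and without v1 E17.5 (-0.62 to 0.029 on leaving out a library). Pcsk2 there reversed with 500 genes (-0.094), Scrublet (-0.12), resolution 2 (-0.11), v2 only (-0.0044) and without v1 E12.5, v1 E14.5 batch 1 or v2 E12.5 (-0.055 to 0.14 on leaving out a library). Of the class levels under alternatives, 456 moved by less than the spread between libraries and 24 by more, and of the shares of cells with a UMI, 250 stayed within their interval and 206 did not. Over all genes, calls moved by over 1.5 times in these cases. With no library block they went from 1144 to 576 (Fev+-like against Ngn3+-like), 560 to 291 (alpha-like against Fev+-like), 564 to 358 (beta-like against Fev+-like), 761 to 395 (beta-like against alpha-like), 69 to 0 (epsilon-like), 789 to 267 (delta-like), 1486 to 735 (glia-like) and 2052 to 1166 (mesothelial-like), and with no kit term from 240 to 70, 113 to 26 and 677 to 413 (alpha-like, beta-like and mesenchymal-like stages). With no low-count filter, in the same order, they were 1924, 1075, 1005, 1198 and 485 in the first 5 and 405, 421 and 1303 in the stages. Resolution 2 gave 762 (Fev+-like against Ngn3+-like) and 34 (beta-like stages), library not regressed out 342 (alpha-like against Fev+-like), 147 (epsilon-like) and 384 (mesenchymal-like stages), v2 only 880 (beta-like against Fev+-like), 1241 (mesothelial-like) and 320 (beta-like stages), Scrublet 300 (epsilon-like) and 62 (beta-like stages), DESeq2 205 (epsilon-like) and 500 genes 1171 (mesenchymal-like stages). On leaving out a library the counts were 376 to 911 (beta-like against alpha-like, lowest without v2 E17.5 and 482 without v2 E14.5), 17 to 913 (epsilon-like, without v2 E14.5 and without Fev-Cre), 340 to 796 (delta-like, lowest without v2 E17.5), 700 to 1707 (glia-like, lowest without v2 E12.5), and 22 to 305, 3 to 139 and 92 to 1032 (stages). Glia-like against mesenchymal-like cells could not be fitted with library not regressed out, nor mesenchymal-like stages with v2 only or without v1 E17.5, and v2 only leaves the alpha-like and beta-like E17.5 side with 1 library, assumed to vary like the others. Class comparisons were paired by library, except in the fit with no library block. Between stages, the batch as replicate block, added after seeing the data, left 0 of the enzymes called in alpha-like and 0 in beta-like stages and 2 in mesenchymal-like stages, and changed no other call. Depth limits the low levels, since a count of 0 in the 21 Ngn3+-like cells of v1 E12.5 allows up to 37.2 CPM.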
